A study of Mus musculus with 12 samples.

Results

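Transcripts of 10 genes that encode cytokines and ligands of the tumor necrosis factor (TNF) family were followed in activated CD4 T cells. The genes were chosen by name from the deposited expression table and are Tnf, Lta, Ltb, Tnfsf11, Tnfsf8, Tnfsf14, Fasl, Lif, Csf2 and Il3. Earlier results of these data were known when they were chosen, so their counts and medians beside those of all genes are descriptions. All 10 were found among the 52635 genes of the table. Values are FPKM, read numbers scaled for exon length and for the library's total. Comparisons between genes rest on the exon lengths used, and those between libraries on the total used. In all, 7 of the 10 genes reached 1 FPKM in 2 or more libraries and were tested together with all other genes that did, 11922 in total. Csf2, Il3 and Fasl stood below 1 FPKM in every library and are described by their values. No unstimulated cells were analysed here, so the levels show these genes after activation and not how far activation raised them.

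Engagement of the T-cell receptor and CD28 switches on transcription factors of the NFAT, AP-1 and NF-κB families, which together start the transcription of cytokine and ligand genes within hours. Most TNF-family ligands are made as membrane proteins that act on receptors of neighbouring cells, and some, such as TNF, are also cut from the surface and act at a distance; lymphotoxin-α is secreted. Retinoic acid (RA), the active derivative of vitamin A, binds nuclear receptors, of which RARα is encoded by Rara, and is known for steering CD4 T cells away from the Th17 state, in which they make interleukin-17, and towards the regulatory state.

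CD4 T cells in the naive state, from mice of the inbred C57BL/6 strain, were stimulated for 24 h with antibodies to CD3 and CD28 in medium with charcoal-stripped serum, and RNA was read from 12 libraries. Every group was given TNFα and TGFβ-1 at 5 ng/mL, IL-23, IL-21 and IL-1β at 10 ng/mL and IL-6 at 20 ng/mL, and antibodies that block IL-4 and IFNγ at 10 μg/mL. TNF protein was therefore present in every culture from the start. The 6 groups, of 2 libraries each, were WT (wild type) and those labelled RARα KO and RARα TG, each without RA (0 nM) and with 10 nM RA for the whole culture. Neither the allele of the KO nor the construct or promoter of the TG is given in the sources used. The labels do not say that the 2 libraries of a group came from different mice. The 2 of each TG group differed in sex and so cannot come from 1 mouse; for WT and the KO label the p-values may reflect only technical spread.

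The total by which FPKM was scaled lay between 16289969 and 25534588 reads a library, worked out from what 1 read is worth in genes with few reads. Recovered reads summed over genes came to 1.063 to 1.066 times this total. Rara itself stood at 12.3 to 18.9 FPKM in WT, 16.8 to 19.5 FPKM in the libraries labelled KO and 63.3 to 126 FPKM in those labelled TG. The gene-level value was thus not lower under the KO label, and these libraries are called the libraries labelled KO throughout. By Xist and genes of the Y chromosome, WT was male, the KO label female, and TG male in replicate 1 and female in replicate 2, so a difference between KO and WT and one between the sexes cannot be told apart. In TG each dose of RA had 1 library of each sex. The comparisons of TG with WT therefore set 1 male and 1 female library against male ones, so genotype and sex are partly mixed there too. The 10 T-cell markers, among them Cd3e, Cd4 and Trac, summed to 1087 to 1617 FPKM and none was at 0 in any library. Other cells' markers were far lower but differed by replicate number. The 10 markers of dendritic cells and macrophages, such as Cd74 and Lyz2, were higher in replicate 2 in 6 of 6 groups, and summed to 23.4 and 148 FPKM in WT replicates 1 and 2 without RA. In bulk RNA, fewer cells of a type and less RNA per cell cannot be told apart.

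The genes formed a steep and nearly fixed order of levels. Lta, which encodes lymphotoxin-α, a secreted relative of TNF, was the highest of the 10 in all 12 libraries at 269 to 489 FPKM and made up 48.3 to 67.4% of their summed FPKM. Ltb, which encodes lymphotoxin-β, the membrane anchor that binds lymphotoxin-α into a heterotrimer, came next at 88.2 to 168 FPKM. Tnf, the inflammatory cytokine itself, followed at 56.3 to 93.0 FPKM. Lif, which encodes leukemia inhibitory factor, a cytokine of the interleukin-6 family, came after Tnf at 16.7 to 62.5 FPKM in 11 of the 12 libraries, and below Tnfsf8 in TG replicate 1 without RA. Ranks below that changed with RA. Tnfsf8, which encodes CD30 ligand, ranged from 3.50 to 20.9 FPKM, Tnfsf14, which encodes LIGHT, from 1.96 to 6.66 FPKM, and Tnfsf11, which encodes RANKL, from 0.567 to 15.6 FPKM.

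**Figure D1:**
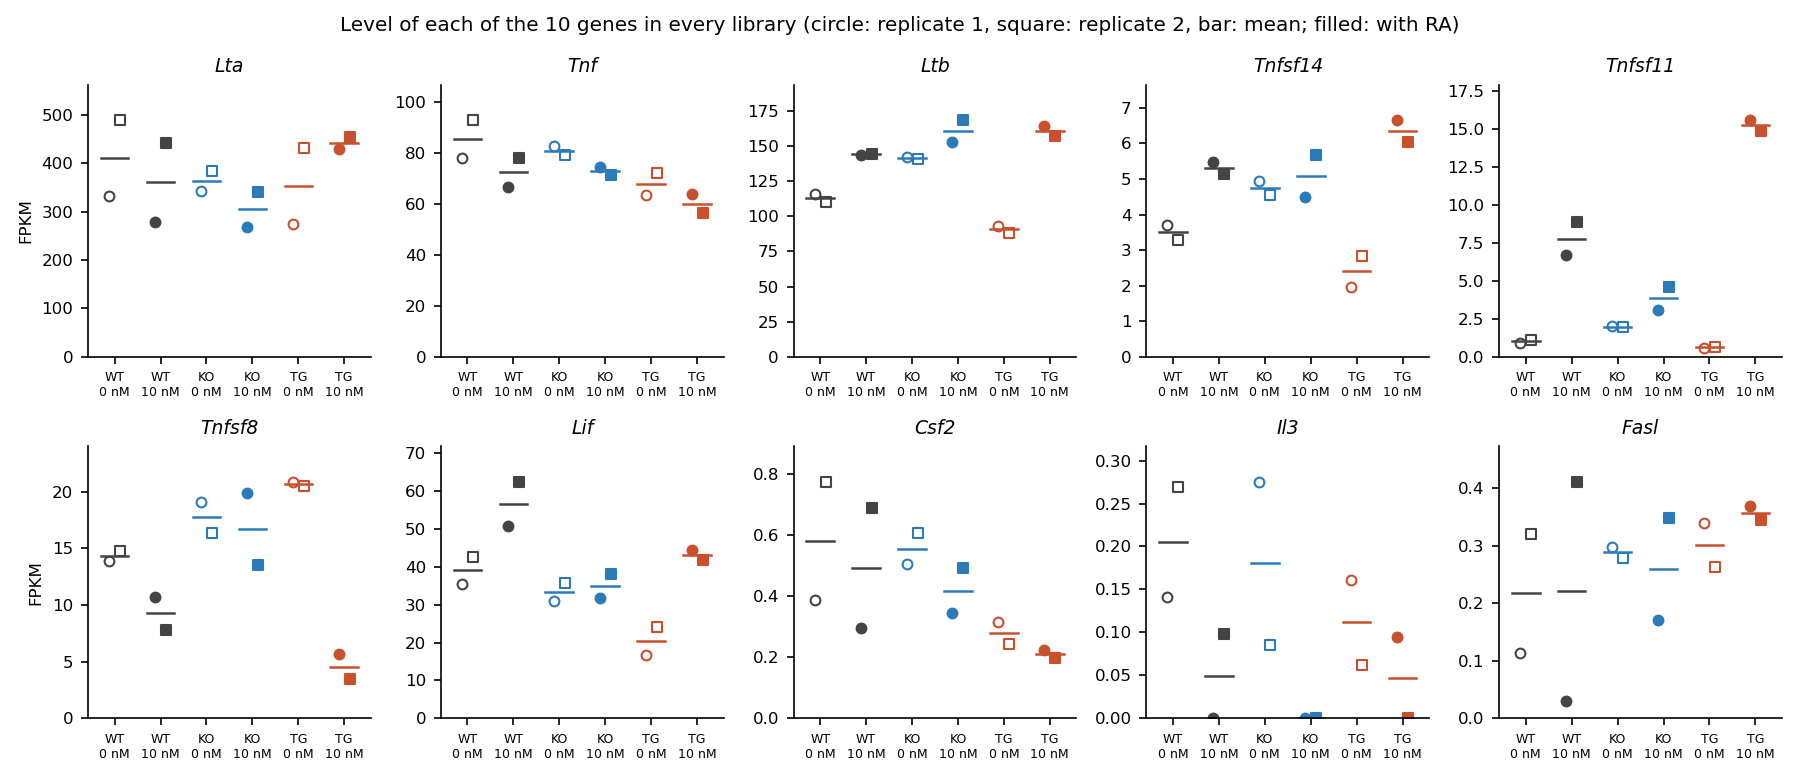
FPKM (vertical axes, each from 0) of the 10 genes in the 12 libraries, by genotype and RA dose (horizontal axes); circles are replicate 1, squares replicate 2, bars the mean of 2, and filled symbols had 10 nM RA. Tnfsf11 reached 15.6 and 14.9 FPKM in TG with RA while Tnfsf8 fell to 5.64 and 3.50 FPKM; in all 6 groups replicate 2 of Lta lies above replicate 1.

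RA moved several of these genes, and the direction depended on the gene. In WT it raised Tnfsf11 and Ltb, in TG it raised Tnfsf11, Tnfsf14, Lif and Ltb and lowered Tnfsf8, and in the libraries labelled KO none passed the test. Tnf and Lta, the pair whose products share receptors, passed in no comparison. Differences were tested with limma on log2(FPKM + 1) over all 11922 genes, and a gene is said to have risen or fallen where its Benjamini-Hochberg adjusted p was below 0.05. Log2 differences are given ± SE on this scale, which understates the change of genes near or below 1 FPKM. In WT, 2 of the 7 tested genes rose and 0 fell, where 6.67% of all tested genes rose and 3.47% fell (795 and 414 genes, or 667 and 554 with upper-quartile scaling). A fit that blocks on replicate number called 4 of the 7 in WT, Lif and Tnfsf8 being added. Over all 11922 tested genes this fit called 1111 up and 578 down there. In TG, 4 rose and 1 fell, where 19.7% of all tested genes rose and 19.4% fell. The median log2 difference of the 7 genes was 0.35 in WT, 0.06 under the KO label and 0.82 in TG, against 0.02, 0.01 and -0.02 over all tested genes.

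**Figure D2:**
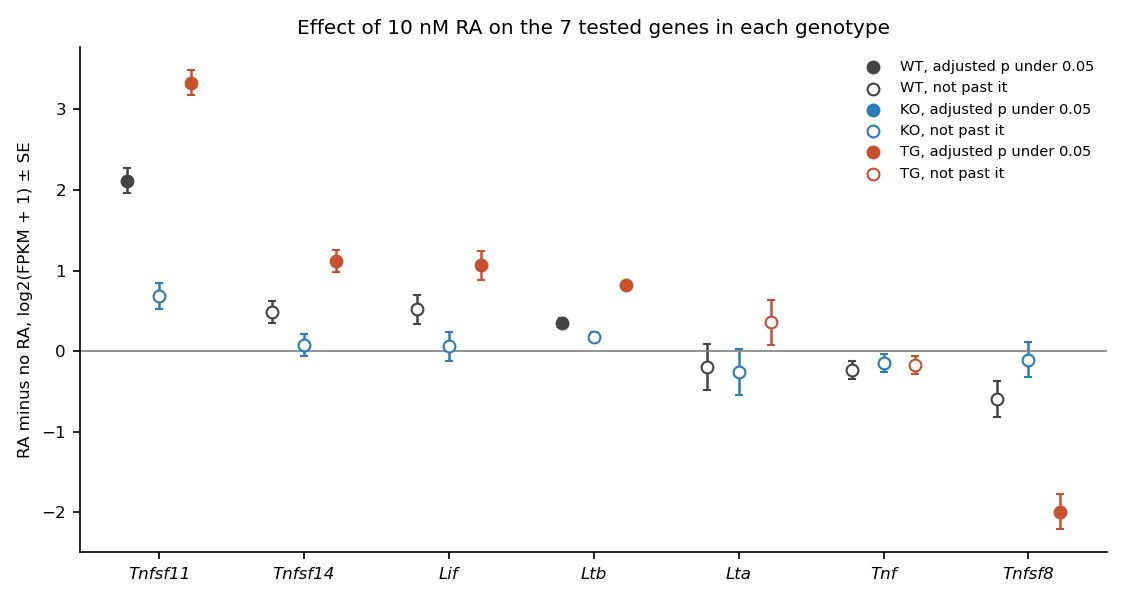
Log2 difference of FPKM + 1 between 10 nM RA and no RA (vertical axis, ± SE) for the 7 tested genes (horizontal axis) in WT, the libraries labelled KO and TG; filled points have a limma adjusted p below 0.05. Tnfsf11 had the highest point of each genotype, at 2.12, 0.69 and 3.33, and Tnfsf8 the lowest in WT and TG, at -0.59 and -1.99.

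Tnfsf11 made the widest move. The gene (ENSMUSG00000022015) lies on chromosome 14 at 78277445 to 78308043 on the minus strand of GRCm38. RANKL is the ligand of RANK, through which it drives the formation of osteoclasts, the survival of dendritic cells and the growth of lymph nodes and of thymic epithelium. In WT its level was 0.912 and 1.11 FPKM without RA and 6.69 and 8.87 FPKM with RA. In TG it stood at 0.567 and 0.666 FPKM without RA and at 15.6 and 14.9 FPKM with RA. With the KO label it stood at 2.02 and 1.96 FPKM without RA and at 3.10 and 4.62 FPKM with RA. Both libraries with RA lay above both without it in every genotype, and the order of the genotypes turned round with RA: TG was lowest without it and highest with it. The ratio of mean FPKM with RA to that without was 7.69 in WT, 1.94 under the KO label and 24.7 in TG. The log2 difference was 2.12 ± 0.16 in WT (limma adjusted p = 0.00041) and 3.33 ± 0.16 in TG (adjusted p = 1.6e-06). Both calls held under every alternative run and without any 1 library. With the KO label it was 0.69 ± 0.16 (adjusted p = 0.16), not past the threshold, with a 95% interval of 0.32 to 1.05. The TG values rest on 25 and 38 recovered reads without RA and on 586 and 846 reads with RA. Both TG libraries without RA stood below 1 FPKM, as did WT replicate 1 without RA, and all other libraries above it.

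Between genotypes, Tnfsf11 with RA was higher in TG than in WT by 0.90 ± 0.16 (limma adjusted p = 0.0083), with both TG libraries above both WT libraries. That call ended without TG 10 nM replicate 1 (0.87, adjusted p = 0.060). With RA the libraries labelled KO stood below WT by -0.86 ± 0.16 (adjusted p = 0.054), just outside the threshold, and passed with a replicate block (adjusted p = 0.025). This difference passed without KO 10 nM replicate 2 (-1.09, adjusted p = 0.029) and without WT 10 nM replicate 1 (-1.04, adjusted p = 0.049), and also with upper-quartile scaling and with limma voom on recovered reads. Without RA the difference from WT was 0.57 ± 0.16 under the KO label (adjusted p = 0.13) and -0.31 ± 0.16 in TG (adjusted p = 0.33), neither past the threshold. The effect of RA itself was larger in TG than in WT by 1.21 ± 0.22 (adjusted p = 0.014). It lost its call without TG 10 nM replicate 1 (1.18, adjusted p = 0.060) or without WT 0 nM replicate 2 (1.14, adjusted p = 0.056). The corresponding difference between KO and WT was -1.43 ± 0.22 (adjusted p = 0.18), with an unadjusted p of 0.00016 and an interval of -1.94 to -0.92, in a comparison in which 0.00839% of all tested genes, 1 gene, passed and 0 of the 7 did, by limma or by limma voom.

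Tnfsf8 (ENSMUSG00000028362; chromosome 4, 63831308 to 63861347, minus strand) moved the other way. CD30 ligand engages CD30 on activated lymphocytes and is known to sustain memory T-cell responses. In TG it stood at 20.9 and 20.5 FPKM without RA and at 5.64 and 3.50 FPKM with RA, the lowest values of the gene in the study. In WT it stood at 13.9 and 14.7 FPKM without RA and at 10.7 and 7.82 FPKM with RA. Libraries labelled KO stood at 19.1 and 16.4 FPKM without RA and at 19.9 and 13.5 FPKM with RA. The RA and no-RA libraries did not overlap in TG or WT and overlapped under the KO label. Mean FPKM in TG was 4.53 times as high without RA as with it. The log2 difference in TG was -1.99 ± 0.22 (limma adjusted p = 0.00020), and it held under every alternative. In WT it was -0.59 ± 0.22 (adjusted p = 0.14, or 0.045 with a replicate block) and under the KO label -0.10 ± 0.22 (adjusted p = 0.91), neither past the threshold. The effect of RA on Tnfsf8 was lower in TG than in WT by -1.40 ± 0.31 (adjusted p = 0.032). That call depended on which libraries were used and ended without TG 0 nM replicate 1 (-1.38) or 2 (-1.41), TG 10 nM replicate 2 (-1.12), WT 0 nM replicate 1 (-1.36) or 2 (-1.44), or WT 10 nM replicate 1 (-1.19), with adjusted p of 0.078 to 0.096. With RA, Tnfsf8 was lower in TG than in WT by -0.89 ± 0.22 (adjusted p = 0.035), a call that ended without TG 10 nM replicate 2 (-0.61), WT 10 nM replicate 1 (-0.69) or WT 10 nM replicate 2 (-1.10), and also without the filter on low values (adjusted p = 0.083), which ended the former call too (adjusted p = 0.078).

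Set against each other, the levels of the RANKL and CD30 ligand transcripts changed places. Without RA the ratio of Tnfsf11 to Tnfsf8 FPKM was 0.0657 and 0.0754 in WT, 0.105 and 0.119 under the KO label and 0.0271 and 0.0325 in TG. With RA it was 0.626 and 1.13 in WT, 0.155 and 0.342 under the KO label and 2.76 and 4.25 in TG. Tnfsf11 exceeded Tnfsf8 in both TG libraries with RA and in WT replicate 2 with RA, and in no other library. Over the 12 libraries the 2 genes had a Pearson r of -0.88 on the log2(FPKM + 1) scale, given as a description since the points share 6 groups.

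**Figure D3:**
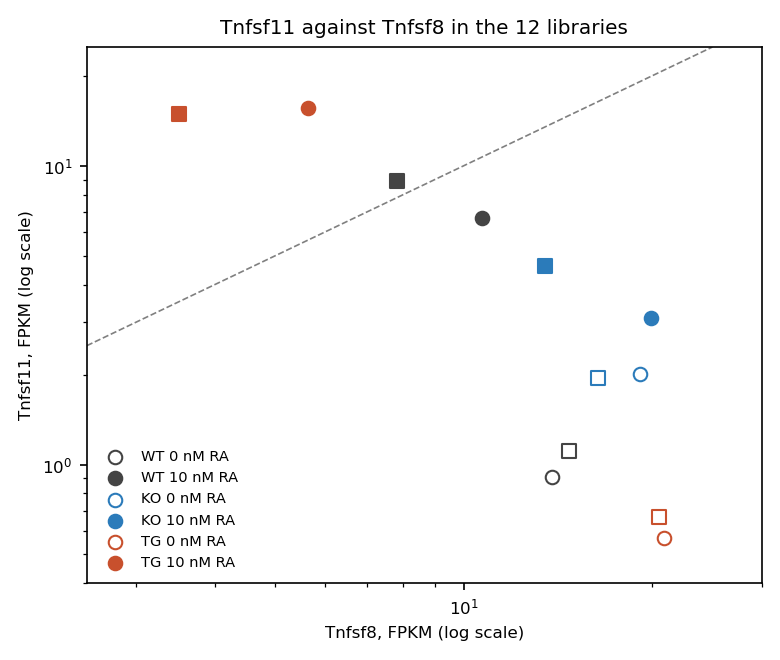
FPKM of Tnfsf11 (vertical axis, log scale) against Tnfsf8 (horizontal axis, log scale) in the 12 libraries; circles are replicate 1, squares replicate 2, filled symbols had 10 nM RA, and the dashed line marks equal levels. The TG libraries lie at both ends, with ratios of 0.0271 and 0.0325 without RA and of 2.76 and 4.25 with it, and the libraries labelled KO lie between.

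The bases upstream of both genes were read next, since their transcripts moved in opposite directions, and are shown 5′ to 3′ on the gene's strand. They come from RefSeq on GRCm38.p6 and stop where the GENCODE M21 gene begins. Capitals mark matches on either strand to GGAAA, the core that NFAT binds (TTTCC on the other strand); no match to the AP-1 letters TGANTCA, the NF-κB motif (GGG, any 2 bases, then TTTCC), the retinoid receptor half-site AGGTCA or, on the gene's strand, TATAAA lies in these windows.

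Tnfsf11, chr14:78308044-78308293, minus strand: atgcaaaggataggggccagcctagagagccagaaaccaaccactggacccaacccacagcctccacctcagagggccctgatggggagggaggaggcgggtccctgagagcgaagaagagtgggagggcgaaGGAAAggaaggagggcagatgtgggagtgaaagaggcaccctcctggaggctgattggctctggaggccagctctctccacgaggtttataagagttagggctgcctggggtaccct

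Tnfsf8, chr4:63861348-63861534, minus strand: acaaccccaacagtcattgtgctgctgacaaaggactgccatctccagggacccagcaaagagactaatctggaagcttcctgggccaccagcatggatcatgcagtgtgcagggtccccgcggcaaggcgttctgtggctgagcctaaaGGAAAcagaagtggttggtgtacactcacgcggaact

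GGAAA, whose matches are frequent by their shortness, lay in the 250 bases before the RefSeq start of all 10 genes and in 55.57% of 32851 promoters of the same length. The half-site AGGTCA lay in none of the 10 and in 14.02% of all promoters. TGANTCA lay in 2 of the 10, Lif and Tnfsf14, and in 6.749% of all. These matches are letters in 1 short window and say nothing about binding, and more distant elements were not searched.

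Tnfsf14 rose with RA in TG. LIGHT binds HVEM and the lymphotoxin-β receptor and costimulates T cells. It stood at 1.96 and 2.84 FPKM in TG without RA and at 6.66 and 6.05 FPKM with RA. In WT it stood at 3.72 and 3.28 FPKM without RA and at 5.48 and 5.15 FPKM with RA. Under the KO label the values without RA, 4.94 and 4.56 FPKM, lay within the range of those with RA, 4.50 and 5.68 FPKM. The log2 difference was 1.12 ± 0.14 in TG (limma adjusted p = 0.00031), kept under every alternative, 0.49 ± 0.14 in WT (adjusted p = 0.056) and 0.08 ± 0.14 under the KO label (adjusted p = 0.89, interval -0.23 to 0.39). The difference of the RA effect between TG and WT was 0.63 ± 0.19 (adjusted p = 0.093) and passed only without TG 0 nM replicate 2 (0.82, adjusted p = 0.041). The recovered reads of this gene were not whole numbers with the GENCODE M21 exon length, so the authors' annotation may have given it another length, which would scale all its values alike.

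Ltb showed small changes against a narrow spread. In WT its level was 116 and 110 FPKM without RA and 144 and 145 FPKM with RA. In TG it stood at 93.4 and 88.2 FPKM without RA and at 164 and 157 FPKM with RA. Libraries labelled KO stood at 142 and 141 FPKM without RA and at 153 and 168 FPKM with RA. RA and no-RA libraries did not overlap in any genotype. The RA effect was 0.35 ± 0.06 in WT (limma adjusted p = 0.0078), no longer called without WT 0 nM replicate 2 (0.32, adjusted p = 0.071), and 0.82 ± 0.06 in TG (adjusted p = 1.5e-05), which held under every alternative. Under the KO label it was 0.18 ± 0.06 (adjusted p = 0.31). RA raised Ltb more in TG than in WT by 0.46 ± 0.08 (adjusted p = 0.012), where 4.75% of all tested genes had a higher and 2.73% a lower RA effect in TG. That call ended without TG 10 nM replicate 1 (0.43, adjusted p = 0.051).

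Without RA, Ltb differed from WT in both other genotypes and in opposite directions. It was higher under the KO label by 0.33 ± 0.06 (limma adjusted p = 0.034), the only 1 of the 7 genes to pass there, where 1.16% of all tested genes were higher and 0.579% lower. This call was lost when any 1 of the 4 libraries was left out, KO 0 nM replicate 1 (0.32) or 2 (0.33) and WT 0 nM replicate 1 (0.36) or 2 (0.29), with adjusted p of 0.104 to 0.245. In TG it was lower than in WT by -0.31 ± 0.06 (adjusted p = 0.024), lost without any 1 of TG 0 nM replicates 1 (-0.35) and 2 (-0.27) and WT 0 nM replicates 1 (-0.27) and 2 (-0.35), with adjusted p of 0.0543 to 0.142. With RA the 3 genotypes stood at 144 to 168 FPKM, and neither difference from WT passed (0.15 ± 0.06 in both, adjusted p = 0.36 for KO and 0.13 for TG).

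Lif (ENSMUSG00000034394; chromosome 11, 4257557 to 4272514, plus strand) rose with RA in TG, where it started lowest. LIF is known to hold naive T cells away from the Th17 state and to favour regulatory cells. In TG it stood at 16.7 and 24.1 FPKM without RA and at 44.5 and 41.9 FPKM with RA. In WT it stood at 35.6 and 42.6 FPKM without RA and at 50.7 and 62.5 FPKM with RA. Libraries labelled KO stood at 31.0 and 35.7 FPKM without RA and at 31.7 and 38.1 FPKM with RA, which overlapped. The RA effect was 1.07 ± 0.18 in TG (limma adjusted p = 0.0018), kept under every alternative, 0.52 ± 0.18 in WT (adjusted p = 0.11, or 0.022 with a replicate block, interval 0.12 to 0.93 without it) and 0.06 ± 0.18 under the KO label (adjusted p = 0.94). Without RA, Lif was lower in TG than in WT by -0.92 ± 0.18 (adjusted p = 0.028). This call ended without TG 0 nM replicate 1 (-0.67), WT 0 nM replicate 1 (-1.05) or WT 0 nM replicate 2 (-0.79), and without the filter on low values (adjusted p = 0.071). Together with Ltb, 2 of the 7 genes were lower and 0 higher in TG without RA, where 2.25% of all tested genes were higher and 2.06% lower. With RA, Tnfsf11 was higher and Tnfsf8 lower in TG, where 6.84% of all tested genes were higher and 4.64% lower. Under the KO label with RA, Lif stood below WT by -0.68 ± 0.18 (adjusted p = 0.17, or 0.035 with a replicate block).

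Tnf and Lta, which encode ligands of the same TNF receptors, passed in none of the 9 comparisons. In WT Tnf had 78.1 and 93.0 FPKM without RA and 66.9 and 78.2 FPKM with RA. It stood at 82.7 and 79.1 FPKM under the KO label without RA and at 74.7 and 71.5 FPKM with RA. In TG it stood at 63.6 and 72.1 FPKM without RA and at 63.8 and 56.3 FPKM with RA. The groups lay close together, and RA and no-RA libraries overlapped in WT and TG and not under the KO label. The RA effect was -0.23 ± 0.11 in WT (limma adjusted p = 0.22, interval -0.48 to 0.02), -0.14 ± 0.11 under the KO label and -0.17 ± 0.11 in TG (interval -0.42 to 0.08). The difference between TG and WT was -0.33 ± 0.11 in the absence of RA (adjusted p = 0.15) and -0.27 ± 0.11 in its presence (adjusted p = 0.16), neither past the threshold.

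Lta differed by replicate number, and no difference between its groups passed. Replicate 2 was higher than replicate 1 in 6 of 6 groups, in WT at 332 and 489 FPKM without RA and at 279 and 442 FPKM with RA. The libraries labelled KO stood at 342 and 383 FPKM without RA and at 269 and 341 FPKM with RA. TG stood at 275 and 431 FPKM without RA and at 430 and 455 FPKM with RA. The RA effect was -0.20 ± 0.28 in WT, -0.26 ± 0.28 under the KO label and 0.36 ± 0.28 in TG (limma adjusted p = 0.72, 0.80 and 0.35), with the widest SE of the 7 genes, and in WT its sign turned without WT 0 nM replicate 2 (0.08) or WT 10 nM replicate 1 (0.13). The summed markers of dendritic cells and macrophages and those of NK cells were also higher in replicate 2 in 6 of 6 groups, and those of B cells in 5 of 6; in WT without RA the B-cell markers summed to 29.6 and 101 FPKM in replicates 1 and 2. The part of these cells in the level of Lta was not tested. In TG with RA the B-cell markers summed to 110 and 108 FPKM, against 31.2 and 33.9 FPKM without RA, mostly through Ighm, which stood at 101 and 95.9 against 27.5 and 27.6 FPKM. The 7 NK-cell markers summed to 7.07 and 8.63 FPKM there with RA, against 46.2 and 52.2 FPKM without RA, mostly through Klrd1. The part of these cells in the changes of Ltb, Lif, Tnfsf8, Tnfsf11 and Tnfsf14 in TG was not tested.

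Lta, Tnf and Ltb lie side by side on chromosome 17 (GRCm38), Ltb at 35194439 to 35196320 on the plus strand, Tnf at 35199381 to 35202007 and Lta at 35203165 to 35205351, both on the minus strand. The gap between Ltb and Tnf is 3060 bases and that between Tnf and Lta 1157 bases. Their patterns over the 12 libraries differed: Pearson r on the log2(FPKM + 1) scale was -0.19 for Tnf and Ltb, 0.16 for Tnf and Lta and -0.01 for Lta and Ltb, as descriptions. Among the tested members Ltb had its highest r with Tnfsf14 (r = 0.93), which lies outside this cluster at 57189492 to 57194177 of the chromosome. Genes outside the 10 had a higher r with Ltb, such as Smad7 (0.99). Of 6 tested genes around the cluster, 0 were called in WT, where 6.67% of all tested genes rose and 3.47% fell. In TG Nfkbil1 rose by 0.44 ± 0.09 and Ddx39b fell by -0.33 ± 0.09 (limma adjusted p = 0.0050 and 0.019). The second call ended without TG 0 nM replicate 2 (-0.24) or TG 10 nM replicate 1 (-0.28). These counts of 1 each way lie near the TG shares over all tested genes, 19.7% up and 19.4% down. The miRNA genes Mir6974 and Mir6973a overlap Lta and Ltb on the same strand and were listed at no more than 15.6 and 15.1 FPKM.

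The windows upstream of Ltb and Tnf are shown because RA raised Ltb past the threshold in WT and TG and moved Tnf past it in no genotype. Whether the responses of these neighbours differ from each other was not tested. Capitals again mark GGAAA or TTTCC, and in addition the NF-κB motif on either strand, which in Ltb overlaps the GGAAA match and reads GGAAAGTCCC, and TATAAA in Tnf.

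Ltb, chr17:35194257-35194438, plus strand: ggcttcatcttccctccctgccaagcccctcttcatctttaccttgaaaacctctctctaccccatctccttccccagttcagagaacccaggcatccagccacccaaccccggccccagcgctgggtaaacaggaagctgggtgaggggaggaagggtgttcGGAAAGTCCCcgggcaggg

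Tnf, chr17:35202008-35202257, minus strand: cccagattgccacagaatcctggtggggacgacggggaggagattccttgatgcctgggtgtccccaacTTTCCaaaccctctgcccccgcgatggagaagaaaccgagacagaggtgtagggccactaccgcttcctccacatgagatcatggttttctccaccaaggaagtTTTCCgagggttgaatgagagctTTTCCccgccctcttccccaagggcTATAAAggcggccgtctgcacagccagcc

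Ltb was the only 1 of the 10 genes with the NF-κB motif in this window, which 1.412% of all promoters hold. Tnf had 3 matches to the NFAT core and a TATAAA at 29 to 24 bases before its start. TATAAA lay in 2 of the 10 windows, those of Tnf and Lta, and in 7.592% of all. Here too the matches say nothing about binding, and their part in the RA effects was not tested.

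Transcripts of the remaining 3 genes were scarce at 24 h. Csf2, which encodes GM-CSF, a cytokine through which Th17 cells drive autoimmune inflammation, stood at 0.197 to 0.776 FPKM, from 3 to 11 recovered reads a library and 76 over all 12. TG stood at 0.317 and 0.245 FPKM without RA and at 0.223 and 0.197 FPKM with RA. Of the other libraries, WT replicate 1 with RA, at 0.295 FPKM, fell within that range and all others lay above it. Il3, which encodes interleukin-3, a growth factor of basophils and mast cells, lies 15635 bases from Csf2 on chromosome 11. It had 14 reads in all, and was listed at 0 in both libraries labelled KO with RA, in WT replicate 1 with RA and in TG replicate 2 with RA. Fasl, the ligand of the death receptor Fas, had 123 reads in all and stood at 0.0304 to 0.412 FPKM, with replicates 1 and 2 of WT with RA at both ends. Without the filter, neither limma nor limma voom on recovered reads called any of these 3 genes in any comparison, and of all these tests 1, that of Il3 for RA under the KO label, had an unadjusted p below 0.05 (adjusted p = 0.60).

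RA under the KO label moved none of the 7 tested genes past the threshold, with limma or with limma voom on recovered reads. Of all tested genes 0.143% passed there. At an unadjusted p below 0.05, 2 of the 7 passed, Tnfsf11 and Ltb, where 1280 of all 11922 tested genes did. KO and WT with RA also differed in 0 of the 7 genes, where 0.881% of all tested genes passed. There 4 of the 7 had an unadjusted p below 0.05, as did 1320 of all 11922 tested genes. For the same difference limma voom called 1, Tnfsf11, and a replicate block 2, Tnfsf11 and Lif. Over all tested genes voom called 116 of 11910 there and the block 174 of 11922. The comparisons of KO and TG with WT share the WT libraries. Fitting only the libraries compared, which leaves fewer residual degrees of freedom, ended the calls of Ltb for RA in WT, of Ltb between KO and WT, of Ltb and Lif between TG and WT without RA and of Tnfsf11 and Tnfsf8 between TG and WT with RA, with adjusted p of 0.0554 to 0.175; the call of Ltb between KO and WT also ended without the filter (adjusted p = 0.069).

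Receptor genes of the 10 ligands and cytokines were read beside them. Of 14 listed, 8 were tested. In TG with RA 3 rose and 2 fell, where 19.7% of all tested genes rose and 19.4% fell. In WT 2 rose and 0 fell, where 6.67% rose and 3.47% fell. Under the KO label 0 passed with limma or limma voom, where 0.143% of all tested genes passed by limma. At an unadjusted p below 0.05 by limma 1 passed there, as did 1280 of all 11922 tested genes. The median log2 difference was 0.24 in TG and 0.11 in WT. For CD30 ligand and its receptor both transcripts fell in TG. Tnfrsf8, which encodes CD30, stood at 16.7 and 17.4 FPKM in TG without RA and at 4.18 and 6.01 FPKM with RA (-1.58 ± 0.16, limma adjusted p = 0.00013). In WT it stood at 8.62 and 8.05 FPKM without RA and at 5.96 and 6.71 FPKM with RA (-0.35 ± 0.16, adjusted p = 0.22). For LIGHT and its receptor both rose. Tnfrsf14, which encodes HVEM, stood at 20.1 and 16.2 FPKM in TG without RA and at 38.2 and 39.9 FPKM with RA (1.07 ± 0.16, adjusted p = 0.00091), and rose in WT by 0.64 ± 0.16 (adjusted p = 0.038). The WT call was lost when WT 0 nM replicate 1 (0.78) or 2 (0.50) or WT 10 nM replicate 1 (0.44) was left out and with upper-quartile scaling (adjusted p = 0.052).

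Receptors of TNF itself, whose own transcript did not pass, also moved. Tnfrsf1b, which encodes TNFR2, the TNF receptor prominent on T cells, stood at 32.5 and 32.7 FPKM in TG without RA and at 60.0 and 58.4 FPKM with RA (0.84 ± 0.06, limma adjusted p = 1.5e-05). Tnfrsf1a, which encodes TNFR1, rose in WT by 0.30 ± 0.07 (adjusted p = 0.032), no longer called without WT 0 nM replicate 1 (0.28) or 2 (0.31) or WT 10 nM replicate 2 (0.22). Il6st, the signalling chain gp130 shared by the receptors of LIF and IL-6, fell in TG by -0.41 ± 0.11 (adjusted p = 0.018), a call that ended without TG 0 nM replicate 1 (-0.23), TG 10 nM replicate 1 (-0.44) or TG 10 nM replicate 2 (-0.39). Il3ra, named after its value was seen, rose in TG by 0.35 ± 0.12 (adjusted p = 0.043), a call that ended without TG 0 nM replicate 1 (0.30) or 2 (0.40) or TG 10 nM replicate 2 (0.23). Transcripts of the RANKL receptor RANK (Tnfrsf11a) stood at no more than 0.0762 FPKM in any library, those of the decoy receptor osteoprotegerin (Tnfrsf11b) at no more than 0.0719 FPKM, those of the LIF receptor (Lifr) at no more than 0.0343 FPKM and those of the lymphotoxin-β receptor (Ltbr) at no more than 0.469 FPKM. The bulk values thus held the ligand transcripts Tnfsf11, Lif and Ltb at levels far above those of these receptors.

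**Figure D4:**
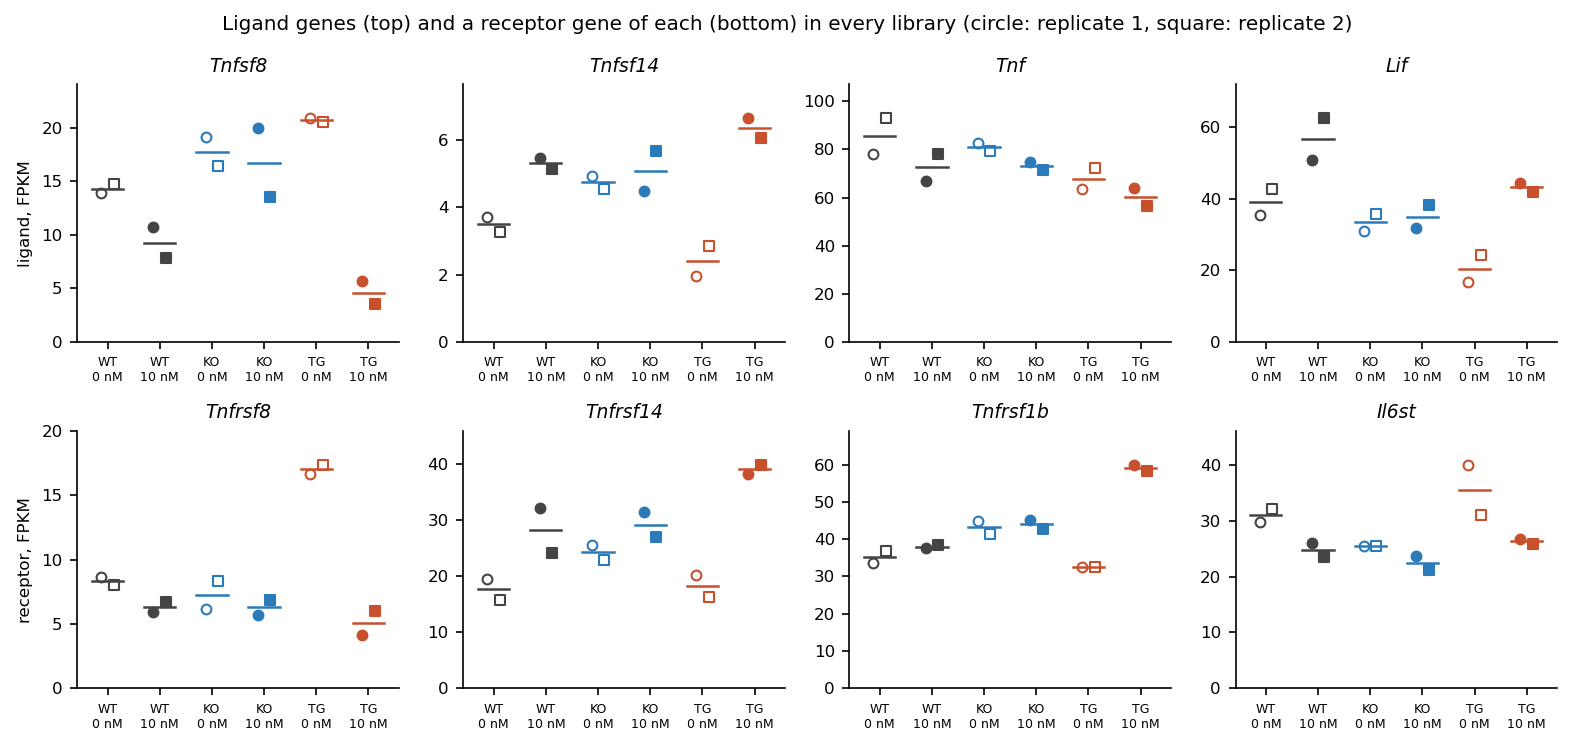
FPKM (vertical axes, each from 0) of 4 ligand or cytokine genes (top) and, below each, a receptor gene, by genotype and RA dose (horizontal axes); circles are replicate 1, squares replicate 2, bars the mean of 2, and filled symbols had 10 nM RA. In TG with RA Tnfsf8 and Tnfrsf8 are both low and Tnfsf14 and Tnfrsf14 both high, whereas Tnfrsf1b rises without a change in Tnf past the threshold.

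Other TNF-family ligands gave a mixed picture as well. Of 11 listed, 4 were tested. In WT 1 rose and 1 fell, where 6.67% of all tested genes rose and 3.47% fell. In TG 1 rose and 2 fell, where 19.7% rose and 19.4% fell. Under the KO label 0 passed with limma or limma voom, where 0.143% of all tested genes passed by limma. At an unadjusted p below 0.05 by limma 1 passed there, as did 1280 of all 11922 tested genes. Tnfsf10, which encodes TRAIL, a ligand of death receptors, stood at 0.587 and 0.580 FPKM in TG without RA and at 2.66 and 2.08 FPKM with RA (1.08 ± 0.12, limma adjusted p = 0.00022). Cd40lg, the ligand by which helper T cells activate B cells, had 30.5 and 40.5 FPKM in WT without RA, against 17.1 and 17.4 FPKM with RA (-0.98 ± 0.18, adjusted p = 0.011), and fell in TG by -0.84 ± 0.18 (adjusted p = 0.0054). The WT call of Cd40lg ended without WT 0 nM replicate 2 (-0.79) or WT 10 nM replicate 1 (-0.97), and that of Tnfsf10 in WT (0.58 ± 0.12, adjusted p = 0.023) without any 1 of the 4 WT libraries (0.51 to 0.64). Tnfsf4, which encodes OX40 ligand, fell in TG by -1.19 ± 0.23 (adjusted p = 0.0041). Tnfsf9, which encodes 4-1BB ligand, stood just outside the threshold there (-0.37 ± 0.13, adjusted p = 0.0504).

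The genes most like each member over the 12 libraries were named by Pearson r on the log2(FPKM + 1) scale, as a description of points that share 6 groups. For Tnfsf11 they were Inpp5b (r = 0.99), Dusp14 (0.99) and Hbegf (0.99). Mean FPKM of Dusp14 was 2.95 in WT without RA, 11.9 with RA, 2.26 in TG without RA and 29.3 with RA. For Tnfsf8 they were Fermt3 (0.97), Gsr (0.96) and Enoph1 (0.96), and for Ltb Smad7 (0.99), Sh2d2a (0.98) and Psmb8 (0.98). For Tnfsf14 they were Ptpn1 (0.97), Sumo3 (0.97) and Tsg101 (0.97), for Lif Dcaf7 (0.93), Mtf2 (0.92) and Kcnk6 (0.91), for Tnf Zfp27 (0.97), Nfyb (0.96) and Rap1b (0.94), and for Lta Plscr1 (0.94), Rbm44 (0.89) and Akirin2 (0.87).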

How the data were processed

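RNA was read in 12 libraries of stimulated CD4 T cells, 2 for each of 3 genotypes at 2 doses of RA. The authors deposited FPKM per gene; the submitters' processing notes list DESeq2, HTSeq 0.6.1, STAR and Trimmomatic 0.32, and as builds mm10 and GRCm38.p5, with no role stated. Their annotation release, and whether reads were counted by strand, are not stated in these sources, so antisense partners may share reads. GENCODE M21 gave positions and exon lengths for 52488 of 52635 gene IDs, and RefSeq on GRCm38.p6 gave the bases upstream of genes.

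The 11922 genes that reached 1 FPKM in 2 or more libraries were tested on log2(FPKM + 1) with limma 3.58.1 in R 4.3.3 (a trend in the prior variance, 6 residual and 2.51 prior degrees of freedom). One fit held all 12 libraries and gave 9 comparisons, with two-sided tests and Benjamini-Hochberg adjustment within each at 0.05. The code was tested on simulated data; Python 3.11.15, numpy 2.4.6, pandas 2.3.3 and matplotlib 3.10.9 were also used. FPKM steps gave back whole reads: of the values up to 20 reads, 95.3 to 95.9% a library lay within 0.02 of a whole number. These reads went into limma voom for 11910 genes. Other alternatives were a pseudocount of 0.1, no filter (25908 genes), upper-quartile scaling, only the libraries compared, a replicate block, and omission of each library in turn; voom without the filter (18591 genes with at least 10 reads) was chosen after seeing the data. Of each further gene list, up to 4 tested genes with the smallest p in a comparison were named. The members and lists were chosen with earlier results of these data known. A value of 0 is given as listed at 0, since 0 is also what every library lists for mt-Co2 and mt-Co3, genes all cells use.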

Additional observations from a re-analysis of the deposited data

Results flagged for a closer look

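The effect of RA differed between TG and WT, by a test of the difference itself with limma, for 3 of the 7 tested ligand and cytokine genes. Of all tested genes 4.75% had a higher and 2.73% a lower RA effect in TG, which is also the background of the receptor genes below. It was higher in TG by 0.4637 for Ltb (adjusted p = 0.012) and by 1.213 for Tnfsf11 (adjusted p = 0.014), and lower by -1.397 for Tnfsf8 (adjusted p = 0.032), on the log2 scale. Leaving out single libraries ended each of these calls, as given above. Among the 8 tested receptor genes the same test passed for Tnfrsf1b, with a difference of 0.7317 (adjusted p = 0.0016), and for Tnfrsf8, with a difference of -1.233 (adjusted p = 0.015). The call of Tnfrsf1b held under all 15 alternatives; that of Tnfrsf8 ended without WT 0 nM replicate 2 (-1.19), WT 10 nM replicate 2 (-1.16) or TG 0 nM replicate 2 (-1.20).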

How the results depend on the processing

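Of the 63 differences of the 7 tested genes, 15 passed, and 6 of these passed under every alternative: Tnfsf11 for RA in WT (1.94 to 2.94 on the log2 scale) and TG (3.29 to 4.60), and for RA in TG Ltb, Lif, Tnfsf8 and Tnfsf14. No difference that passed changed sign. Over 749 alternatives, 679 kept direction and side of the threshold, 35 lost the call, 10 gained one and 25 changed sign.

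Leaving out single libraries moved the number of genes past the threshold to 1 to 2 of 7 for RA in WT (2 with all libraries), to 0 between KO and WT without RA (1), to 0 to 1 between KO and WT with RA (0), to 0 to 1 between TG and WT without RA (2), to 1 between TG and WT with RA (2), and to 1 to 3 for the RA effect in TG against WT (3). Without the filter the numbers were 0 between KO and WT without RA and 1 between TG and WT at each dose. With only the libraries compared they were 1 for RA in WT and 0 for these 3. Between KO and WT with RA, 1 passed with upper-quartile scaling, with voom and with voom without the filter. The causes were not tested, except that fewer libraries leave fewer degrees of freedom.

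Leaving out single libraries turned the sign of 13 differences that had not passed, given as their range on the log2 scale. Those of Lta ran from -0.53 to 0.13 for RA in WT, from -0.433 to 0.125 between KO and WT without RA and from -0.544 to 0.116 with RA, from -0.548 to 0.0981 between TG and WT without RA, and from -0.39 to 0.27 for the RA effect in KO against WT. Those of Tnf ran from -0.1995 to 0.0504 between KO and WT without RA, from -0.0963 to 0.127 with RA, from -0.035 to 0.215 for the RA effect in KO against WT and from -0.0642 to 0.186 for that in TG against WT. For RA under the KO label they ran from -0.0685 to 0.191 for Lif, from -0.367 to 0.161 for Tnfsf8 and from -0.0633 to 0.217 for Tnfsf14, and between KO and WT with RA from -0.199 to 0.0814 for Tnfsf14.

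With the replicate number as a block, 4 of the 7 passed for RA in WT, with Lif (0.52, adjusted p = 0.022) and Tnfsf8 (-0.59, adjusted p = 0.045) added, and 2 between KO and WT with RA, Tnfsf11 (adjusted p = 0.025) and Lif (adjusted p = 0.035); it ended no call. Deviations of same-numbered libraries correlated at 0.327 in WT, 0.32 under the KO label and 0.147 in TG between the doses of RA, and at 0.0035 to 0.206 between genotypes. In TG the number also marks sex at both doses. The labels do not say that the numbers mark pairs, so the fit without the block was kept and its changed calls are given above.

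Over all tested genes, only the libraries compared gave 142 calls in place of 1209 for RA in WT, 0 in place of 17 under the KO label, 26 in place of 207 and 14 in place of 105 between KO and WT without and with RA, and 47 in place of 514 and 422 in place of 1369 between TG and WT. The block gave 1689 calls for RA in WT and 73 under the KO label. It gave 479 and 174 between KO and WT without and with RA, and 823 between TG and WT without RA. Without the filter 30 passed for RA under the KO label, and 21 in place of 1 for the RA effect in KO against WT. Leaving out single libraries gave 342 to 850 calls for RA in WT, 6 to 16 under the KO label, 31 to 80 and 44 to 94 between KO and WT without and with RA, 131 to 224 and 626 to 1041 between TG and WT, 3233 to 4083 in place of 4662 for RA in TG, 469 to 716 in place of 892 for the RA effect in TG against WT and 1 to 4 for that in KO against WT, so that the shares set beside the members' counts move with it. Csf2, Il3 and Fasl rest on few reads.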

Other observations

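Other genes of the activated state moved with RA beside the ligands. Of 13 tested cytokine genes of CD4 T cells, 5 fell and 0 rose in WT, where 3.47% of all tested genes fell and 6.67% rose, and 8 fell and 3 rose in TG, where 19.4% fell and 19.7% rose. The shares in TG are the background of each count below. Il17f, a cytokine that marks Th17 cells, stood at 307 and 389 FPKM in TG without RA and at 2.97 and 3.97 FPKM with RA (-6.29 ± 0.22, limma adjusted p = 4.9e-07). In WT it stood at 412 and 554 FPKM without RA and at 98.6 and 131 FPKM with RA (-2.06 ± 0.22, adjusted p = 0.0012). Il17a, which encodes interleukin-17A, was not called in WT, at 7.98 and 10.0 FPKM without RA and 7.35 and 10.6 FPKM with RA. In TG Il17a fell, from 6.14 and 6.59 FPKM without RA to 1.98 and 2.42 FPKM with RA. Il9 stood at 447 and 849 FPKM in TG without RA and at 4.33 and 10.1 FPKM with RA. The 3 that rose in TG were Il2, Tgfb1 and Il1a, and the calls of Il2 and Il1a ended when single libraries were left out. Il17f and Il9 thus fell while Tnf and Lta did not pass.

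Of 15 tested transcription factors of activation, 6 rose and 4 fell in TG with RA, against 19.7% and 19.4% of all tested genes. Jun, a partner in AP-1, stood at 20.7 and 18.0 FPKM without RA and at 53.4 and 52.9 FPKM with RA (1.42 ± 0.08, limma adjusted p = 4.3e-06), while Fosl2, another AP-1 gene, fell by -1.05 ± 0.07. Nfatc1 rose by 1.04 ± 0.08 and Rel, an NF-κB subunit, by 0.94 ± 0.09. Of 10 tested factors that act on the decay of cytokine mRNA, 4 fell and 0 rose in TG. Of all tested genes, 19.4% fell and 19.7% rose there. Calls in either direction were 4 of these 10 factors and 4662 of all 11922 tested genes. The factors that fell were Zfp36l1 (-0.71 ± 0.07), Zfp36l2 (-0.68 ± 0.11), Elavl1 and Rc3h1. The call of Rc3h1 was lost under 5 of 11 alternatives. The list does not separate factors that speed decay from those that slow it, so the count gives no direction of decay. Of 4 tested genes of shedding proteases and their partners, 2 rose in TG: Adam10 stood at 37.2 and 35.4 FPKM without RA and at 71.7 and 70.8 FPKM with RA (0.95 ± 0.06, adjusted p = 4.8e-06), and Rhbdf2, a partner of the TNF sheddase ADAM17, rose by 0.92 ± 0.12. Adam17 itself differed by -0.04 ± 0.07, not past the threshold. Of 12 tested activation markers, 4 rose and 4 fell in TG, with Tnfrsf9, which encodes 4-1BB, at 5.29 and 5.42 FPKM without RA and at 38.2 and 31.9 FPKM with RA, and Cd44 at 17.3 and 20.2 against 5.50 and 6.04 FPKM.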
